A study of Homo sapiens with 46 samples.

Results

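The 10 genes described here encode proteins of the inner nuclear membrane, the face of the nuclear envelope that touches chromatin, and their closest partners. They are EMD, TMPO, LEMD2, LEMD3, BANF1, LBR, TOR1AIP1, TOR1A, NRM and TMEM43. They were chosen by name as genes whose proteins bind lamins or share the membrane with those that do. The choice was made with earlier results of these data known. They are 10 of 62756 genes in the count table. All 10 were among the 21484 genes that passed the filter on low counts. RNA was measured in 46 libraries of DLD-1, a human cell line long established from a colorectal adenocarcinoma. The parental cells carried no tag. The other 3 lines each carried an auxin-inducible degron (AID) at the N-terminus of an endogenous lamin, and they are written here as LAC (AID-Lamin A/C), LB1 (AID-Lamin B1) and LB2 (AID-Lamin B2). Each line received 1 mM auxin, a plant hormone that sends AID-tagged proteins to the proteasome, for 0, 16 or 96 h. This gave 12 groups of 4 libraries, except that LB1 at 0 h and LB2 at 96 h had 3. Each library came from 1 well of a 6-well plate, so p-values measure the spread between wells. The labels do not state whether a tagged line is a single clone, so a difference between lines can be that of a clone.

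Lamins are filament proteins that form a meshwork under the inner nuclear membrane. A-type lamins come from LMNA, and the B-type lamins B1 and B2 from LMNB1 and LMNB2. Membrane proteins tie this meshwork to the envelope and to chromatin. Emerin (EMD), LAP2 (TMPO), LEMD2 and MAN1 (LEMD3) share the LEM domain, a fold that binds the small DNA-bridging protein BAF (BANF1). LAP2β, a membrane-bound product of TMPO, is named in the series title beside lamin B1. TMPO also gives LAP2α, which is not in the membrane, and counts per gene cannot separate these products. The lamin B receptor (LBR) holds heterochromatin at the membrane and is also a sterol reductase. LAP1 (TOR1AIP1) binds lamins and activates torsinA (TOR1A), an ATPase of the space between the 2 nuclear membranes. Nurim (NRM) and LUMA (TMEM43) are multi-pass proteins of the same membrane.

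In the edgeR test with TMM scaling (trimmed mean of M values), 5 of these genes declined between 16 h and 96 h in LB1 cells. This number depended on the scaling, with 1 call under RLE (relative log expression) scaling, 0 under library totals alone and 2 with DESeq2. Of all genes, 20.4% were called with TMM, 19.9% with RLE, 21% with library totals and 20.9% with DESeq2. The sequences before the start sites of 4 of the 5 are shown because edgeR with TMM scaling called these genes lower in LB1 cells. They were taken from the RefSeq promoter table (GRCh38.p14), in which 9 of the 10 genes had an entry and TOR1A did not. Each is written 5′ to 3′ on the strand of its gene and ends before both the RefSeq start and the GENCODE 29 start of the gene. Capitals mark the CCAAT box, searched as CCAAT and its reverse complement ATTGG.
TMPO, chr12:98515323-98515572, plus strand: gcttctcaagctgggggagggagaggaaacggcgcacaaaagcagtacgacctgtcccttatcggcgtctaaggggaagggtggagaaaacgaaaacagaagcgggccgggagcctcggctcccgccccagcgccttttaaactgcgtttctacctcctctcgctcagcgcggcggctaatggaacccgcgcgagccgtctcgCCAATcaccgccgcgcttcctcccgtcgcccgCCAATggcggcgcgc
LEMD3, chr12:65169333-65169582, plus strand: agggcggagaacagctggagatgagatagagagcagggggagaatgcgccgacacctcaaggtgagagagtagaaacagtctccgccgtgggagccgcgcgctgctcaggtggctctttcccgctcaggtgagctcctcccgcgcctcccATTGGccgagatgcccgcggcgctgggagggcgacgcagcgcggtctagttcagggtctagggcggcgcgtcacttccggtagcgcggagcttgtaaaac
LBR, chr1:225428926-225429071, minus strand: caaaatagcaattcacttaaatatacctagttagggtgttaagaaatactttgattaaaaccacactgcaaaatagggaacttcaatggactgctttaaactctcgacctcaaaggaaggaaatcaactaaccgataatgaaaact
TMEM43, chr3:14124802-14125014, plus strand: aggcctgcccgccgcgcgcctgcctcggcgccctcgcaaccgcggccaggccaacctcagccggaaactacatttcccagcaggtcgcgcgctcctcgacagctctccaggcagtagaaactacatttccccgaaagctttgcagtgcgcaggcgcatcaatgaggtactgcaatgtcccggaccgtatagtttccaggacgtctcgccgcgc
The TMPO stretch held 2 matches and LEMD3 held 1. LBR and TMEM43, with shorter stretches of 146 and 213 bases, held 0, as did their full 250 bases before the RefSeq start. Of the genes not shown, EMD held 2 in the 250 bases before its RefSeq start, and TOR1AIP1, NRM, LEMD2 and BANF1 held 0. Unlike the stretches shown, those of EMD and TOR1AIP1 run past the start of the gene. Those of LEMD2 and BANF1 lie inside the gene, as do some of the entries of NRM. Over all promoters of the table, 32% of 35116 held a match in the 250 bases before the start. The stretches also differ in base composition, with 33.6% G and C bases before LBR and 64.8% before TMPO. A match is a description of these letters and not a measured binding site.

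Levels are given as CPM, counts brought to a common library total, scaled between libraries by TMM, and levels of different genes are compared only as CPM per kilobase of gene length. Totals ran from 479446 to 37309421 counts per library with a median of 11533218. Totals were under 5000000 in 6 libraries, and 5 of these 6 were 0 h libraries. The 10 genes had 10 to 23712 counts each per library. For epithelial identity, 8 of 9 colorectal epithelial markers had a median of at least 1 CPM, and their summed level ranged from 5536 to 12580 CPM. Summed fibroblast, immune and endothelial markers stayed at or below 17.5 CPM in every library. Before auxin, LMNB1 was lower in LB1 than in parental cells (94.7 ± 7.3 CPM, SD, n = 3, against 147 ± 8.9, n = 4). LMNB2 was lower in LB2 (143 ± 79 against 283 ± 32 CPM), and LMNA was lower in LAC (435 ± 230 against 738 ± 111 CPM). On the log2 scale LMNB1 differed by -0.64 (edgeR adjusted p 0.0115), LMNB2 by -1.02 (adjusted p 0.000857) and LMNA by -0.77 (adjusted p 0.0347). Without replicate 1 of the tagged line's 0 h group, which stood apart as described next, LMNB2 in LB2 differed by -1.43 and LMNA in LAC by -1.17. These RNA levels do not report loss of the tagged protein, which auxin acts on. In bulk RNA, fewer expressing cells and less RNA per cell cannot be told apart.

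Replicate 1 stood apart for several of the 10 genes in 2 of the 0 h groups. In LAC at 0 h, replicate 1 held 3318819 counts and gave LEMD2 at 97.1 CPM, where replicates 2 to 4 gave 27.3, 35.1 and 41.0 CPM. The same library gave LBR at 136 CPM, against 322, 248 and 235 CPM in the others. In LB2 at 0 h, replicate 1 held 1894447 counts and gave TOR1AIP1 at 57.7 CPM, against 109, 99.8 and 110.3 CPM in the others. It gave LEMD2 at 46.02 CPM, against 25.9, 23.8 and 27.5 CPM, and was also highest of its group for NRM, BANF1 and TMPO. LMNA was at 1547 CPM in this library and at 485 to 512 CPM in the other 3. Among the comparisons that use these 2 groups, leaving out the library that stood apart changed the calls among the 10 genes in 2. EMD lost its call in LAC at 96 h against 0 h, and in LB2 against parental cells at 0 h BANF1 lost its call and TOR1AIP1 gained one. Values without these libraries are given beside the results that use those groups.

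In parental cells without auxin, BANF1 and TMPO had the highest levels per kilobase, at 77.2 ± 9.0 and 64.5 ± 5.8 CPM per kb (SD, n = 4), and their ranges overlapped. LBR followed at 41.8 ± 3.7 CPM per kb, apart from its neighbours on both sides. TMEM43 (25.4 ± 3.1 CPM per kb), EMD (19.4 ± 1.9), NRM (17.8 ± 1.2), TOR1AIP1 (17.1 ± 0.9), TOR1A (15.3 ± 1.1) and LEMD3 (15.2 ± 1.1) formed a run in which each gene overlapped the next. LEMD2 was lowest at 5.06 ± 0.59 CPM per kb, below all libraries of LEMD3, and BANF1 stood 15.2 times above it. BANF1 was highest, TMPO next, LBR the third and LEMD2 lowest by mean in all 12 groups.

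Across groups the spread was narrow. The highest group mean was 1.41 times the lowest for EMD, 1.43 times for TMPO, 1.48 times for LEMD3, 1.502 times for BANF1, 1.51 times for TOR1AIP1, 1.53 times for LBR and 1.58 times for TOR1A. It was 1.69 times for TMEM43 and 1.87 times for NRM. LEMD2 had the widest ratio, 2.37, with LAC at 0 h as its highest group. Without the 2 libraries that stood apart its ratio was 1.63, below those of NRM (1.74) and TMEM43 (1.69).

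**Figure D1:**
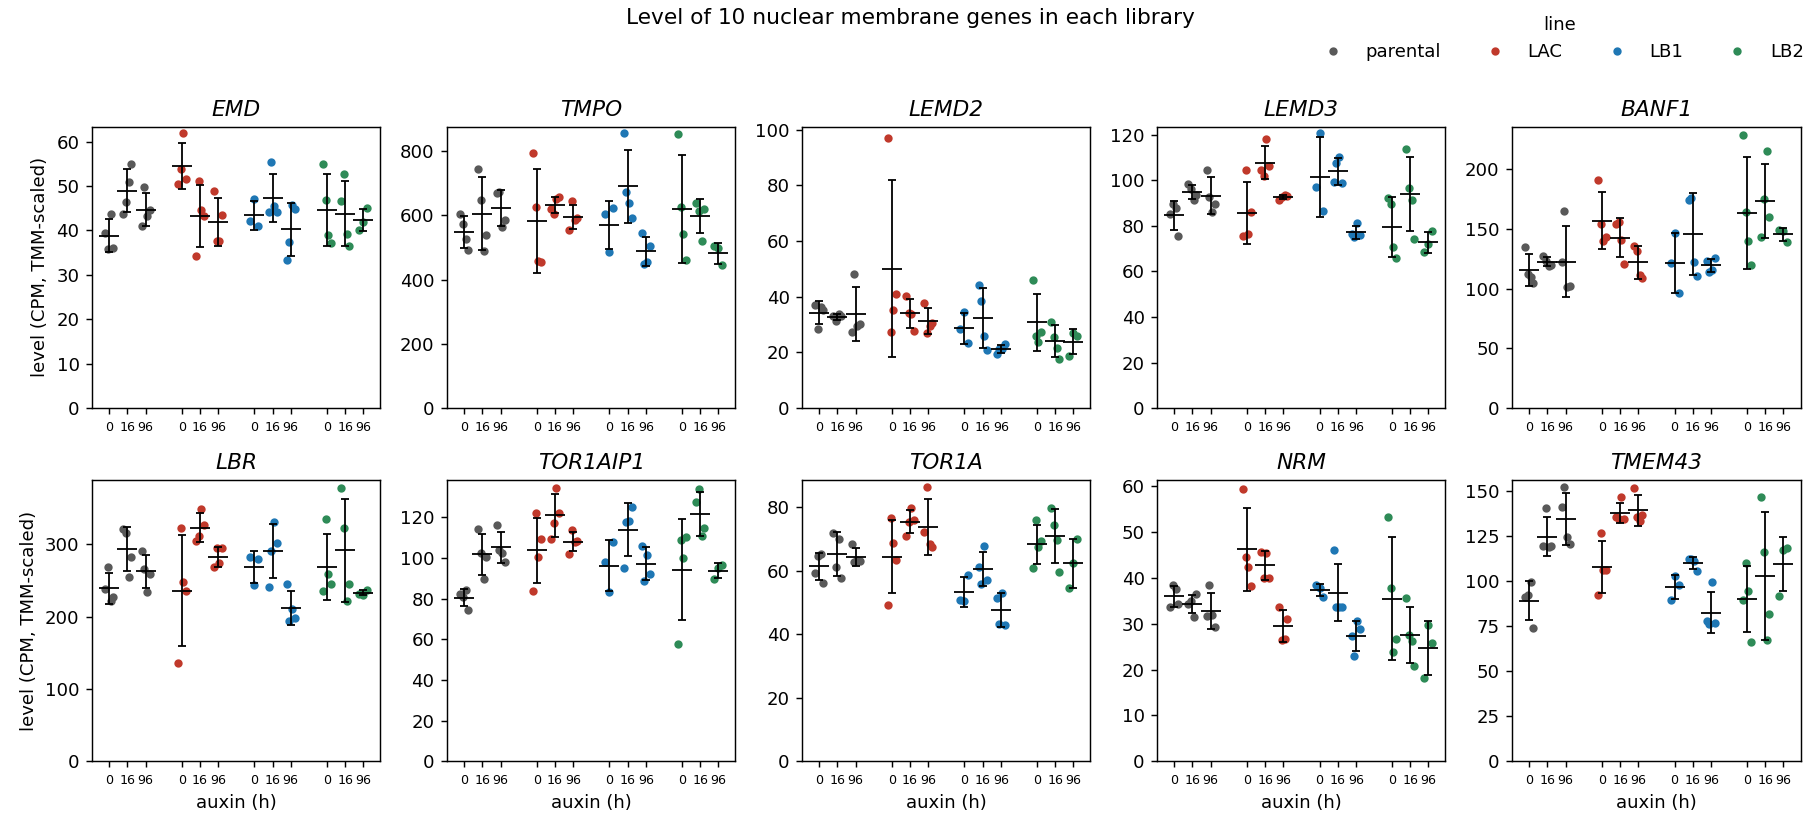
TMM-scaled level in CPM (vertical axes, linear from 0) of each of the 10 genes in each library (points), by line and hours of auxin (horizontal axes), with group means and SD (black bars). LAC replicate 1 at 0 h is the single high LEMD2 point at 97.1 CPM, and the LB1 points at 96 h lie below those at 16 h for TMPO, LEMD3 and TMEM43.

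The change between 16 h and 96 h of auxin compares early with late auxin exposure without using the 0 h libraries, among which most of the shallow ones fall. In LB1 cells 5 of the 10 genes fell between these times: TMPO, LEMD3, LBR, TOR1A and TMEM43. The other 5 had negative values that did not pass the test. Over all genes 20.4% were called in this comparison and 10.9% were called lower, so calls were common in it. Negative values were found for 44.7% of all genes. The median log2 change was -0.42 over the 10 genes, with a range from -0.59 to -0.23, and 0.08 over all genes tested.

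TMPO, on chromosome 12 (ENSG00000120802.14, chr12:98515579-98550351), had 855, 674, 639 and 592 CPM in the 4 LB1 libraries at 16 h and 544.5, 448.5, 453.5 and 504 CPM at 96 h. Every 96 h library lay below every 16 h library. The log2 change was -0.50 (SE 0.15, edgeR adjusted p 0.0149).

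LEMD3, on the same chromosome (ENSG00000174106.3, chr12:65169583-65248355), encodes MAN1, which binds SMAD proteins and dampens TGF-β signalling. It had 99.3, 108, 110.4 and 98.7 CPM at 16 h and 76.4, 75.1, 81.4 and 75.9 CPM at 96 h. These groups also did not overlap, and the 96 h libraries lay close together. The log2 change was -0.43 (SE 0.12, edgeR adjusted p 0.00752).

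LBR (ENSG00000143815.15, chr1:225401502-225428925) had 240.3, 291, 330.4 and 301 CPM at 16 h and 244.5, 194, 210 and 197 CPM at 96 h. Replicate 1 at 96 h lay just above replicate 1 at 16 h, so the groups overlapped by that pair. Its log2 change was -0.46 (SE 0.15, edgeR adjusted p 0.0258).

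TOR1A (ENSG00000136827.12, chr9:129812942-129824244), the torsin ATPase, had 61.3, 56.0, 67.7 and 57.1 CPM at 16 h and 51.5, 43.3, 53 and 43.1 CPM at 96 h, without overlap. The fall was the smallest of the 5, at -0.34 (SE 0.12, edgeR adjusted p 0.0353).

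TMEM43 (ENSG00000170876.8, chr3:14125015-14143680) had 112, 112, 111 and 105 CPM at 16 h and 77.7, 76.3, 99.4 and 76.7 CPM at 96 h. Replicate 3 at 96 h stood above the other 3, and all 4 were below the 16 h libraries. The log2 change was -0.41 (SE 0.14, edgeR adjusted p 0.0336).

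Of the 5 genes that did not pass, LEMD2 had a value of -0.59 (SE 0.24, edgeR adjusted p 0.0706) and NRM one of -0.42 (SE 0.17, edgeR adjusted p 0.0654). EMD, BANF1 and TOR1AIP1 had values of -0.23, -0.28 and -0.23.

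**Figure D2:**
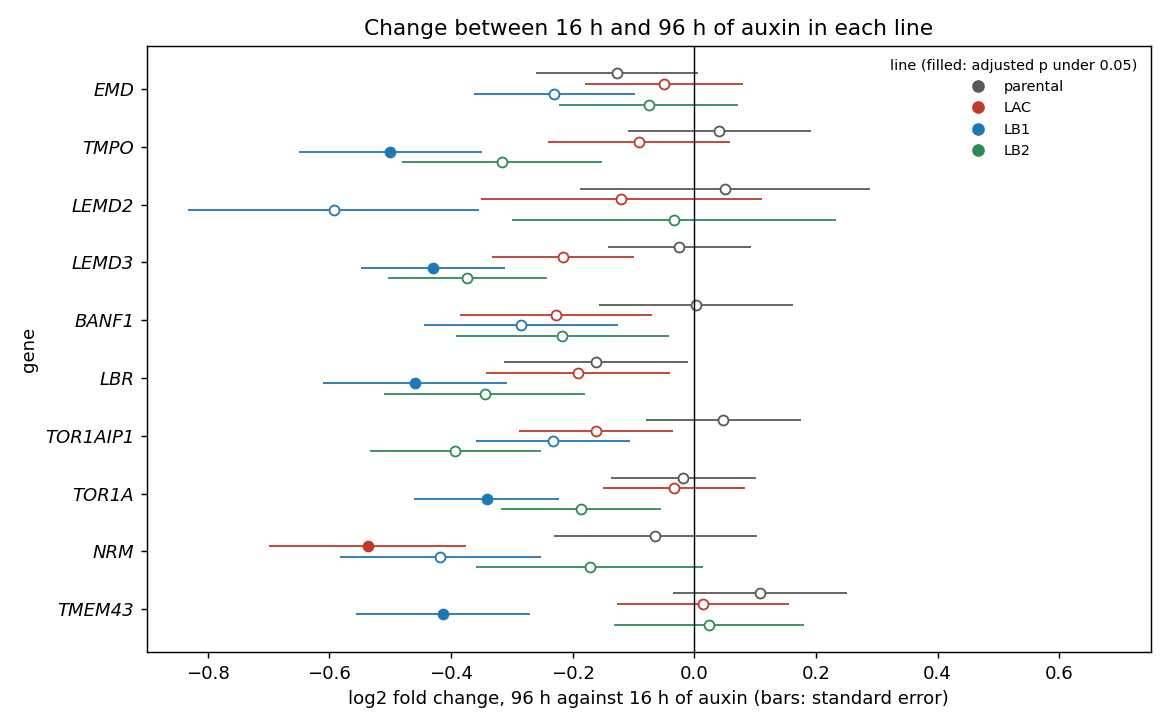
log2 fold change from 16 h to 96 h of auxin (horizontal axis, with standard errors as bars) for each gene (vertical axis) in the 4 lines. Filled points have an edgeR adjusted p under 0.05: TMPO, LEMD3, LBR, TOR1A and TMEM43 in LB1, at -0.50 to -0.34, and NRM in LAC at -0.54.

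How many of the 5 calls held depended on scaling and on single libraries. Scaling by size factors of the RLE type or by library totals alone moved the median of all genes from 0.08 to 0.19 and 0.27. Of all calls, 53.2% were lower with TMM, 35% with RLE and 23.3% with totals. The change of scaling left LEMD3 alone called with RLE and none of the 10 with totals, against 19.9% and 21% of all genes. The distance between the median of the 10 genes and that of all genes was -0.49, -0.50 and -0.50 under TMM, RLE and totals. A change of scaling shifts all genes by nearly the same amount, so this distance could hardly move and does not test the decline. Leaving out LB1 96 h replicate 2 or replicate 4 left only LEMD3 called, and leaving out LB1 16 h replicate 1 left LBR, LEMD3 and TMEM43. Leaving out parental 16 h replicate 4 or LB2 96 h replicate 1 or 2, none of which is an LB1 library, left TMPO and LEMD3. TMEM43 also lost its call without LB1 16 h replicate 2 or 96 h replicate 1, and LBR and TOR1A without LB1 16 h replicate 3. All 10 values stayed negative in each of the 46 fits with 1 library left out. Without the 6 libraries under 5000000 counts, 9 of the 10 genes were called, EMD being the exception, against 30.1% of all genes. Fold changes in LB1 followed GC content weakly in this comparison (Spearman correlation -0.31 over 8547 expressed genes). With each library's GC and length trend removed, LBR (-0.43) and LEMD3 (-0.36) were called and TMPO was at -0.48 (adjusted p 0.0513).

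The same interval was then compared between lines. In parental cells TMPO, LEMD3, LBR, TOR1A and TMEM43 had log2 values of 0.04, -0.02, -0.16, -0.02 and 0.11. In LAC cells the values were -0.09, -0.22, -0.19, -0.03 and 0.01. In LB2 cells they were -0.32, -0.37, -0.34, -0.19 and 0.02. None of these values passed the test. Of all 10 genes, 5 had negative values in parental cells, 9 in LAC and 9 in LB2. The medians of the 10 were -0.0076, -0.14 and -0.20. With RLE scaling 3, 7 and 7 were negative. The values of TMPO, LEMD3 and LBR in LB2 had the sign of those in LB1, and the TMEM43 values lay at or above 0.01 outside LB1. Of the 10 genes, the edgeR test called none in parental cells or LB2, where 0.265% and 2.5% of all genes were called. At an unadjusted p under 0.05 these counts were 0 and 3. DESeq2 called 0 and 0, against 0.521% and 3.94% of all genes, and limma voom 0 and 4, against 2.64% and 19.9%. Without the 6 libraries under 5000000 counts, 1 of which is LB2 16 h replicate 3, TOR1AIP1 (-0.42), LBR (-0.43) and LEMD3 (-0.38) were called lower in LB2, against 9.08% of all genes. LBR and LEMD3 are 2 of the 5 genes called in LB1. In LAC cells NRM was the 1 gene called, against 5.27% of all genes. It was not called with RLE scaling (-0.46, adjusted p 0.0777), library totals (-0.39, adjusted p 0.102), DESeq2 (adjusted p 0.0529) or no filter on low counts (adjusted p 0.0737).

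Whether the LB1 interval differed from the parental one was tested directly in a comparison added after the data were seen. For the 10 genes the difference LB1 minus parental ranged from -0.64 for LEMD2 to -0.10 for EMD, with values of -0.54 for TMPO (SE 0.21, edgeR adjusted p 0.188), -0.52 for TMEM43 (SE 0.20, adjusted p 0.181) and -0.41 for LEMD3 (SE 0.17, adjusted p 0.208). The edgeR test called 0 of the 10, against 1.15% of all genes, with 3 at an unadjusted p under 0.05 and 0 called by either DESeq2 or limma voom. Without the 6 shallow libraries, none of which is in the 4 groups compared, TMPO (-0.59), TMEM43 (-0.57) and LEMD3 (-0.46) passed at adjusted p of 0.0137, 0.022 and 0.0393, against 8.68% of all genes. The fit of all libraries does not show that the LB1 change differs from the parental change. For LAC and LB2 minus parental cells edgeR called 0 and 0 of the 10, against 0.121% and 0.0326% of all genes, with 1 and 1 at an unadjusted p under 0.05. DESeq2 called 0 and 0, and limma voom 0 and 1, against 1.19% and 1.65% of all genes with limma voom. Leaving out the shallow libraries also moved the median of all genes in the LB1 comparison, from 0.03 to -0.0082. The cause of the added calls was not tested.

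Among other lamina and inner membrane genes in LB1, 7 of 18 tested fell between 16 h and 96 h and the other 11 did not pass. Over all genes 10.9% were called lower. This list and the list of 19 partners below were chosen with earlier results of these data known, so their shares are a description and not a test. The number that fell was 4 with RLE scaling and 2, LMNA and TOR1AIP2, with library totals alone. LMNA, which encodes lamins A and C, fell most among them, from 855 ± 202 CPM at 16 h to 312 ± 53 CPM at 96 h (SD, n = 4, log2 change -1.46, edgeR adjusted p 7.19e-05). TOR1AIP2, a second torsin activator, fell by 0.85 on the log2 scale, and SUN2, which links the lamina to the cytoskeleton, by 0.66. LMNB2, LMNB1, ANKLE2, a LEM protein that acts on BAF, and RCE1, a protease that processes prenylated proteins such as B-type lamins, fell by 0.65, 0.52, 0.36 and 0.63. The median over the 18 was -0.33. Among 19 chromatin, signalling and membrane-remodelling partners, 8 fell and VRK1, a kinase that releases BAF from DNA, rose by 0.45. Those that fell included the heterochromatin proteins CBX5 (-0.73) and CBX1 (-0.52), which bind LBR and other envelope proteins, SMAD3 (-0.47), a target of MAN1, and CTNNB1 (-0.46), which encodes β-catenin, a partner of emerin. VPS4A (-0.55), VPS4B (-0.33) and CHMP7 (-0.39) of the ESCRT system that seals the nuclear envelope fell as well, as did the BAF kinase gene VRK2 (-0.40). CHMP4B, IST1 and SPAST of the same list were not called. With the GC and length trend removed, VPS4B (edgeR adjusted p 0.0651), CHMP7 (0.0616) and VRK1 (0.21, adjusted p 0.129) lost their calls. BCLAF1, RB1 and SMAD2 were then called lower. VPS4B and CHMP7 also lost their calls with RLE scaling. With RLE scaling 6 of the 19 fell and with library totals 5. The median over the 19 was -0.26, against 0.08 over all genes.

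Against their own 0 h libraries, the 10 genes in LB1 gave a weaker picture at 96 h. All 10 values were negative with TMM scaling, from -0.45 for NRM to -0.0015 for TOR1AIP1. Their median was -0.22 against 0.04 over all genes. With RLE scaling, library totals alone, DESeq2, no filter on low counts or the GC and length trend removed, 8 were negative. The edgeR test called 0 of the 10 and 3.17% of all genes. At an unadjusted p under 0.05 there were 3. DESeq2 called 0, against 4.6% of all genes, and limma voom 2, LBR and NRM, against 7.54%. With the GC and length trend removed LBR was called lower, also with the replicate block, against 7.23% and 7.15% of all genes. With the 2 groups fitted alone NRM was called lower, against 8.25%. Here the 0 h group had 3 libraries, of which replicate 2 held 1452968 counts. LMNA fell by 1.25 in this comparison (edgeR adjusted p 0.00359). At 16 h the values in LB1 ran from -0.03 to 0.28, the edgeR test called none of the 10 against 1.5% of all genes, and neither an unadjusted p under 0.05 nor a DESeq2 or limma voom call was seen.

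Auxin alone was tested in parental cells, where no lamin carried a degron. TMEM43 rose there at both times and was the 1 gene of the 10 called by edgeR in the fit of all libraries, against 9.01% of all genes called at 16 h and 7.78% at 96 h. Its levels were 90.9, 92.4, 99.2 and 73.7 CPM at 0 h, 119.3, 140.7, 118.8 and 119.5 CPM at 16 h, and 140.8, 151.8, 124.3 and 120.5 CPM at 96 h. All 8 treated libraries were above all 4 untreated ones. The log2 changes were 0.48 (SE 0.14, edgeR adjusted p 0.0279) at 16 h and 0.59 (SE 0.14, edgeR adjusted p 0.00654) at 96 h. The 96 h call held in all 46 fits with 1 library left out. At 16 h it was lost without parental 0 h replicate 4, parental 16 h replicate 2 or 4, or LB2 96 h replicate 2, and with library totals as the only scaling (0.37, adjusted p 0.0688). TOR1AIP1 had 82.3, 80.9, 84.1 and 74.4 CPM at 0 h, 114, 102.6, 89.6 and 100.6 CPM at 16 h and 116, 104, 102.4 and 98.2 CPM at 96 h. Its treated libraries also all lay above the untreated ones, and its log2 values were 0.34 (SE 0.13, edgeR adjusted p 0.0862) and 0.39 (SE 0.13, edgeR adjusted p 0.0535). At 96 h it was called in 23 of 56 alternatives, among them limma voom (adjusted p 0.00724), the fit without shallow libraries (0.0108), removal of the GC and length trend (0.0121) and the 2 groups alone (0.0202). At 16 h it was called in 5 of 56, limma voom among them (0.00655). EMD had values of 0.33 and 0.21, neither called, and 2 of 56 alternatives called it at 16 h.

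In the tagged lines TMEM43 did not pass the edgeR test against 0 h with TMM scaling. In LAC its levels were 92.3, 126.7, 106.1 and 105.9 CPM at 0 h, 134.3 to 146.3 CPM at 16 h and 133.1 to 151.5 CPM at 96 h, so the treated libraries lay above the untreated ones. Its log2 values were 0.35 at 16 h (edgeR adjusted p 0.16) and 0.36 at 96 h (edgeR adjusted p 0.0759), and 0.30 and 0.31 without LAC 0 h replicate 1. The 96 h value was called in 6 of the 10 alternatives other than leaving out 1 library, namely RLE scaling (adjusted p 0.0381), library totals (0.00641), DESeq2 (0.0246), limma voom (0.0121) and removal of the GC and length trend without and with the replicate block (0.0106 and 0.00364). It was called in 3 of 46 fits with 1 library left out. In LB2 the values were 0.25 and 0.27. In LB1 its levels went from 89.6, 102.9 and 97.7 CPM at 0 h to the 105 to 112 CPM at 16 h and 76.3 to 99.4 CPM at 96 h given above, and the log2 values were 0.19 and -0.22. The test of the difference between the LB1 and parental responses at 96 h gave -0.81 (SE 0.21, edgeR adjusted p 0.0454), in a comparison where 1.04% of all genes were called and TMEM43 was the 1 of the 10 called. This call was kept in 27 of 46 fits with 1 library left out. It was lost with library totals alone (-0.64, adjusted p 0.0723) or no filter on low counts. It held after removal of the GC and length trend (-0.70, adjusted p 0.0108). The libraries whose removal ended it were LB1 0 h replicates 1, 2 and 3, LB1 96 h replicates 1, 2 and 4, parental 0 h replicates 1 and 4, parental 96 h replicates 1, 2 and 3, and 8 libraries of groups outside the comparison. The same difference was -0.23 for LAC and -0.32 for LB2, neither called, and -0.32 and -0.36 without the 0 h library of that line that stood apart. LAC minus LB1 was 0.58 (edgeR adjusted p 0.196), or 0.54 without LAC 0 h replicate 1. With the GC and length trend removed it was called higher, without and with the replicate block, against 2.33% and 2.77% of all genes.

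All 10 genes had negative LB1 minus parental values at 96 h, with a median of -0.38, and all 10 had negative LB2 minus parental values, with a median of -0.30. The medians over all genes were 0.03 and 0.01. With RLE scaling or library totals alone, 9 were negative for LB1 and 10 for LB2, and with limma voom 9 and 7. These 2 comparisons share the parental libraries, in which 8 of the 10 genes had positive values at 96 h. LAC minus parental cells shares them too. There 8 of the 10 were negative, with a median of -0.28 against 0.06 over all genes. Without LAC 0 h replicate 1 all 10 were negative, with a median of -0.24. In LB2 the edgeR test called 0 of the 10 against 0.368% of all genes, with 2 at an unadjusted p under 0.05, and 0 by DESeq2 or limma voom. TMPO had the lowest LB2 value, -0.54 (SE 0.22, edgeR adjusted p 0.284), or -0.39 without LB2 0 h replicate 1, and the median of the 10 was then -0.26. At 16 h none of the 10 was called by edgeR in the 3 response differences, against 0.116% of all genes for LAC, 0.0279% for LB1 and 0.00465% for LB2. The counts at an unadjusted p under 0.05 were 1, 0 and 0, and those called by DESeq2 and by limma voom were the same. For LAC, DESeq2 called 1.04% of all genes and limma voom 3.14%.

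In LAC cells 2 of the 10 genes, EMD and NRM, were lower after 96 h of auxin than before it, against 15.4% of all genes called and 8.64% called lower. Of all calls here 56.2% were lower with TMM and 33.2% with library totals alone, under which NRM stayed called, EMD did not and TMEM43 was called higher. EMD (ENSG00000102119.12, chrX:154379273-154381574) encodes emerin, which depends on A-type lamins for its place in the membrane. Its levels in LAC were 50.5, 53.9, 62.0 and 51.7 CPM at 0 h, 34.3, 51.2, 44.6 and 43.2 CPM at 16 h, and 48.9, 37.6, 37.6 and 43.5 CPM at 96 h. The 96 h libraries all lay below the 0 h libraries. The log2 change at 96 h was -0.38 (SE 0.13, edgeR adjusted p 0.0423). NRM (ENSG00000137404.15, chr6:30688047-30691420) encodes nurim. It had 59.2, 44.6, 42.4 and 38.2 CPM at 0 h, 45.6, 40.0, 45.4 and 40.0 CPM at 16 h, and 33.7, 26.4, 26.8 and 30.9 CPM at 96 h. Here too no 96 h library reached the 0 h or 16 h levels. The changes of NRM were -0.63 (SE 0.17, edgeR adjusted p 0.00658) against 0 h and -0.54 (SE 0.16, edgeR adjusted p 0.0385) against 16 h.

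In LAC the fold changes of all genes followed GC content. The Spearman correlation between log2 change and exonic GC was taken over 8547 genes. It reached -0.66 in the 96 h and -0.71 in the 16 h comparison, where parental cells gave 0.02 and 0.01. EMD (59.97% GC) and NRM (59.3%) had the highest GC content of the 10 genes, at the 87.7th and 85.9th percentile of expressed genes. After the GC and length trend was removed, the LAC change at 96 h was -0.05 for EMD (edgeR adjusted p 0.856) and -0.29 for NRM (adjusted p 0.12), and neither was called. NRM from 16 h to 96 h stayed called at -0.42 (adjusted p 0.0168). TMEM43 in LAC at 96 h was at 0.38 with that trend removed. What sets the relation to GC content was not tested.

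**Figure D3:**
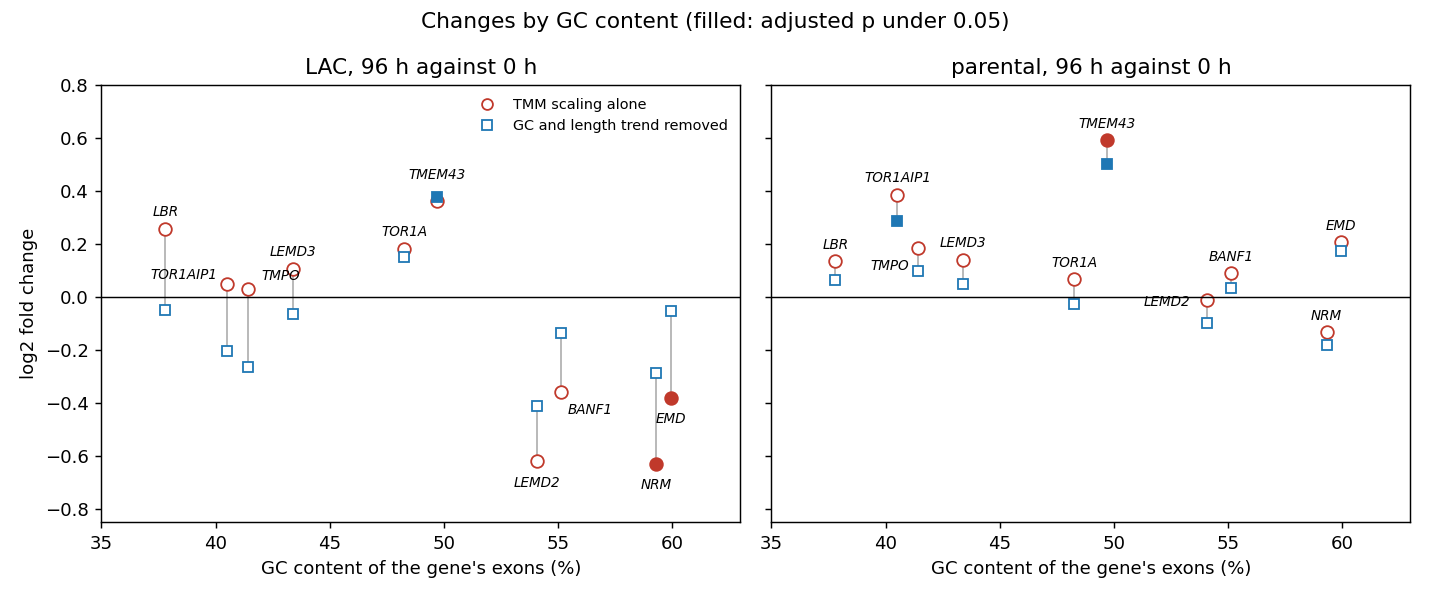
log2 fold change at 96 h against 0 h (vertical axes) by exonic GC content of each gene (horizontal axes, percent) in LAC and in parental cells, with TMM scaling alone (circles) and after removal of the trends with GC and length (squares), joined by a line for each gene. Filled symbols have an edgeR adjusted p under 0.05; in LAC, EMD moves from -0.38 to -0.05 and NRM from -0.63 to -0.29, and both symbols become open.

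Without LAC 0 h replicate 1, the NRM change against 0 h was -0.49 (edgeR adjusted p 0.045) and the EMD change was -0.40 (adjusted p 0.0554), no longer called. The EMD call also ended without any other single library of LAC at 0 h, without LAC 96 h replicate 2, 3 or 4, and without any of 12 libraries of other groups. The NRM call from 16 h to 96 h ended without LAC 16 h replicate 1, 2 or 3, LAC 96 h replicate 2, 3 or 4, or any of 4 libraries of other groups. LEMD2 had a value of -0.62 at 96 h with all libraries and -0.12 without replicate 1, and at 16 h -0.50 and 0.0013. LBR had 0.26 at 96 h and 0.08 without it. The response of EMD in LAC minus that in parental cells was -0.59 at 96 h (SE 0.19, edgeR adjusted p 0.0471), the 1 call among the 10 against 7.4% of all genes. It was -0.64 (adjusted p 0.031) without LAC 0 h replicate 1 and -0.23 (adjusted p 0.472) after removal of the GC and length trend. With that trend removed TOR1AIP1 was the 1 gene called, lower in LAC, against 8.29% of all genes, and also with the replicate block. With TMM alone TOR1AIP1 was at -0.34 (edgeR adjusted p 0.251), or -0.45 (adjusted p 0.139) without LAC 0 h replicate 1. The EMD call ended with RLE scaling, library totals alone or no filter on low counts. It was lost in 20 of 46 fits with 1 library left out. These were LAC 96 h replicates 2, 3 and 4, LAC 0 h replicate 3, parental 0 h replicates 2 and 4, parental 96 h replicates 2, 3 and 4, and 11 libraries of other groups. EMD in parental cells was at 39.5, 35.9, 43.8 and 36.0 CPM at 0 h and 41.0, 49.9, 43.3 and 44.6 CPM at 96 h. At 16 h in LAC the edgeR test called 0 of the 10 against 1.78% of all genes, with 5 at an unadjusted p under 0.05. DESeq2 called 1, against 5.54% of all genes, and limma voom 4, against 13%. In the 2 lists of other genes at 96 h in LAC, 3 of 18 and 3 of 19 were called (16.7% and 15.8%), close to the 15.4% over all genes. SUN2 (-0.70) and TOR1AIP2 (-0.59) fell and NEMP1 (0.57), an inner membrane protein, rose among 18 lamina genes. CHMP7 (-0.44) and SMAD3 (-0.38) fell and SPAST (0.39), the microtubule-severing ATPase of nuclear sealing, rose among 19 partners. SUN2 and SPAST lost their calls after removal of the GC and length trend, and also without LAC 0 h replicate 1 (-0.50 and 0.40).

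Before auxin, 3 of 30 comparisons of a tagged line with parental cells were called. EMD was higher in LAC than in parental cells at 0 h, with the 8 values given above not overlapping, by 0.49 (SE 0.14, edgeR adjusted p 0.00921). TOR1AIP1 (ENSG00000143337.19, chr1:179882042-179920077), which encodes LAP1, was higher in LAC as well, at 83.8, 121.8, 100.5 and 109.2 CPM against 82.3, 80.9, 84.1 and 74.4 CPM in parental cells. Replicate 1 of LAC alone fell within the parental range, and the difference was 0.38 (SE 0.13, edgeR adjusted p 0.039). Over all genes 15.8% were called in this comparison and 8.71% were higher. After removal of the GC and length trend, EMD was at 0.26 (adjusted p 0.165) and TOR1AIP1 at 0.46 (adjusted p 4e-05). Both were called without LAC 0 h replicate 1, at 0.55 and 0.49. The TOR1AIP1 call ended without parental 0 h replicate 1, 3 or 4, LAC 0 h replicate 2, 3 or 4, or any of 6 libraries of other groups. It also ended with RLE scaling or no filter on low counts. Both calls ended with library totals alone and when the 2 groups were fitted alone. Among the 18 lamina genes in LAC at 0 h, 4 were higher, namely TMEM201 (1.24), an inner membrane protein also known as SAMP1, LMNB2 (0.81), LMNB1 (0.62) and ANKLE2 (0.30), and 2 were lower, LMNA (-0.77) and SUN1 (-0.39). All 6 were called without LAC 0 h replicate 1, while ANKLE2 was not called with RLE scaling, library totals or DESeq2 and LMNA was not called with DESeq2. Of all calls in this comparison 44.9% were lower with TMM, 54.6% with RLE and 76.2% with library totals alone.

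BANF1 (ENSG00000175334.8, chr11:66002228-66004149), which encodes BAF, was higher in LB2 than in parental cells at 0 h. It had 229, 164.1, 140.3 and 120.2 CPM in LB2 and 135, 112, 109.8 and 104.9 CPM in parental cells, so the ranges overlapped. The difference was 0.49 (SE 0.16, edgeR adjusted p 0.04999), with 8.21% of all genes called. Its highest value came from replicate 1, the library that stood apart, without which the difference was 0.32 (adjusted p 0.186). It was 0.28 (adjusted p 0.121) after removal of the GC and length trend and 0.36 (adjusted p 0.157) without the 6 shallow libraries. The call also ended with RLE scaling (adjusted p 0.0577), library totals (0.0872), limma voom (0.13), no filter on low counts (0.0632) and the 2 groups alone (0.156). It lost its call in 20 of 46 fits with 1 library left out, namely LB2 0 h replicates 1 and 2, parental 0 h replicates 2, 3 and 4, and 15 libraries of other groups. In LAC at 0 h BANF1 had 191.3, 154, 139.6 and 143.7 CPM, all above the parental libraries. That difference was 0.44 (SE 0.16, edgeR adjusted p 0.0532), not called, and it was called in 21 of 56 alternatives, among them the replicate block (adjusted p 0.0208). It was 0.37 (adjusted p 0.121) without LAC 0 h replicate 1 and 0.24 (adjusted p 0.15) after removal of the GC and length trend. TOR1AIP1 in LB2 at 0 h was at 0.25 against parental cells (edgeR adjusted p 0.268) and at 0.43 (adjusted p 0.0146) without LB2 0 h replicate 1. In LB1 the edgeR test called 0 of the 10 at 0 h against 4.05% of all genes, and none had an unadjusted p under 0.05 or a call by DESeq2 or limma voom.

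**Figure D4:**
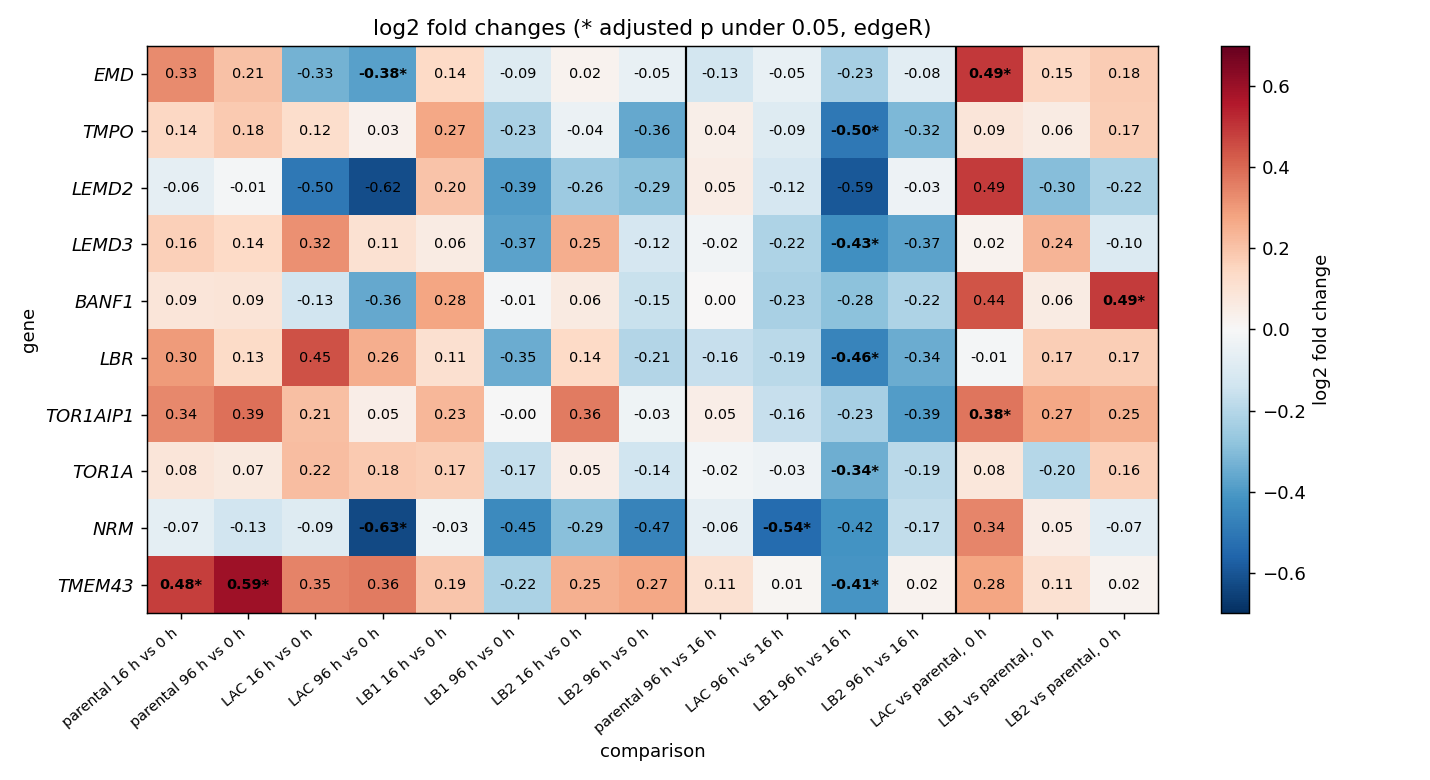
log2 fold changes of the 10 genes (rows) in 15 comparisons (columns): each line at 16 h and 96 h against its own 0 h, 96 h against 16 h, and each tagged line against parental cells at 0 h. Colour and printed values give the change, and an asterisk marks an edgeR adjusted p under 0.05. The LB1 columns for 96 h against 16 h and for 96 h against 0 h are negative throughout, with 5 and 0 asterisks. From 16 h to 96 h, 9 of the 10 values are also negative in LAC and in LB2.

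Against their own 0 h libraries, the 10 genes in LB2 had no edgeR call at 16 h or 96 h, where 1.81% and 3.55% of all genes were called. At an unadjusted p under 0.05 there were 2 at each time, DESeq2 called 0 and 0, and limma voom 2 and 0. TMPO in LB2 had 853, 625, 542 and 459.8 CPM at 0 h, 639.9, 614, 519.9 and 619.8 CPM at 16 h and 505, 498 and 445 CPM at 96 h. The 96 h values lay below those at 16 h without overlap and within reach of the lowest 0 h library, and the change against 0 h was -0.36, or -0.16 without LB2 0 h replicate 1. Without that library edgeR again called 0 of the 10 at either time. Direct comparisons of the 96 h responses between tagged lines called 0 of the 10 by edgeR, against 1.01% of all genes for LAC minus LB1, 0.489% for LAC minus LB2 and 0.121% for LB1 minus LB2. The counts at an unadjusted p under 0.05 were 3, 1 and 1, and DESeq2 called 0 in each. limma voom called 2, 3 and 0, against 6.71%, 15.1% and 2.41% of all genes.

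The 10 genes differed in how far their levels moved together over the 12 group means of log2 CPM, which share libraries, depth and base composition. Pearson's r was 0.81 between LBR and LEMD3, 0.80 between TMPO and LBR and 0.79 between TMPO and LEMD3. The highest pair was LEMD2 and NRM at 0.85, and the lowest was BANF1 and TMEM43 at -0.10. Without the 2 libraries that stood apart these 5 values were 0.74, 0.77, 0.84, 0.81 and 0.0061. Among 9627 genes with a symbol and a mean of at least 10 CPM, the 3 nearest to TMPO were CENPA, the centromeric histone H3 variant (r 0.96), PPP3R1, a calcineurin subunit (0.89), and C9orf40 (0.89). LBR ranked 41 and LEMD3 ranked 43 in that order. The 3 nearest to LBR were RAB2A (0.92), MKLN1 (0.90) and UBTD2 (0.90), and the 3 nearest to EMD were DUS1L (0.91), TRAF7 (0.89) and RCC1L (0.89). TMPO ranked 2810 of 9627 for EMD (r 0.38).

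Counts at overlapping or similarly named genes were low, though the handling of strand and of reads with several matches is not given, so reads shared with them cannot be bounded from these counts. TMPO-AS1, antisense to TMPO, had 0.816% of the level of TMPO, and the antisense gene at TOR1AIP1 had 0.443% of that of TOR1AIP1. A gene overlapping TMEM43 on the same strand had 0.787% of its level. Genes named as pseudogenes of TMPO and BANF1 reached at most 0.525% of the level of their parent gene.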

How the data were processed

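RNA from 46 wells of DLD-1 cells was sequenced as stranded, ribosome-depleted total RNA, per the labels' protocols. What the authors deposited is a single table of unnormalized read counts for each gene, made with featureCounts 1.6.4 per the file headers. The submitters' processing notes also name STAR 2.7.10a, SAMtools 1.10, deepTools 3.4.5, DESeq2 1.40.2 and GRCh38. The strand setting, the handling of reads with several matches and the annotation release are not given in the sources used here. Gene length, another column that the authors deposited in bases, was used for levels per kilobase. Of the table's lines, 3 were broken, which touched 1 gene, and were left out.

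Counts were tested in R 4.3.3 with edgeR 4.0.16 (TMM scaling, filterByExpr, quasi-likelihood F test, two-sided) in 1 fit of all 46 libraries with a coefficient per group. p-values were Benjamini-Hochberg adjusted over 21484 genes and called at 0.05. DESeq2 1.42.0, limma 3.58.1 (voom with quality weights) and 8 other settings were alternatives, beside leaving out each library. GC content came from GENCODE 29. The scripts were tested on simulated data. Groups came from the labels. All 10 genes are named, as are the lamin genes and the listed genes called in a comparison described. Likeness is Pearson's r over 12 group means of log2 CPM (prior count 2). The 10 genes and both lists were chosen with earlier results of these data known. Replicate numbers did not pair the libraries: same-numbered libraries deviated together, with r above 0.1 for every number, in 1 of 15 pairs of groups, and r ran from -0.57 to 0.69. Replicates differed beyond counting noise, with a chi-square per degree of freedom of at least 3.97 over 66 pairs.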

Additional observations from a re-analysis of the deposited data

Results flagged for a closer look

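Of 100 sets of 4 libraries, 1 per gene and group, 9 held a library far from the other 3, where chance gives about 1 in 20. TMEM43 gave 4 of these. It was at 140.7 CPM in parental cells at 16 h (replicate 2, the others at 118.8 to 119.5) and at 146.3 CPM in LAC at 16 h (replicate 3, the others at 134.3 to 135.7). In LB1 it was at 105.3 CPM at 16 h (replicate 4, the others at 111.2 to 111.9) and at 99.37 CPM at 96 h (replicate 3, the others at 76.32 to 77.69). LEMD2 was at 48.17 CPM in parental cells at 96 h (replicate 2, the others at 27.46 to 30.33) and at 46.02 CPM in LB2 at 0 h (replicate 1, the others at 23.83 to 27.51). EMD was at 55.39 CPM in LB1 at 16 h (replicate 2, the others at 44.04 to 45.47), and NRM at 46 CPM in the same group (replicate 1, the others at 33.6 to 33.71). TOR1A was at 68.4 CPM in parental cells at 96 h (replicate 1, the others at 62.73 to 63.31).

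Responses at 96 h differed from the parental response by a test of the difference for 2 genes. The difference for TMEM43 in LB1 was -0.81 (edgeR adjusted p 0.0454), and the one for EMD in LAC was -0.59 (edgeR adjusted p 0.0471). Both adjusted p-values lay close to the threshold, with ranges over the alternatives of 0.00689 to 0.142 and 0.0156 to 0.472. Both calls ended with library totals alone and without the low-count filter, and that of EMD with RLE scaling too.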

How the results depend on the processing

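The 15 called changes kept their sign under all 56 alternatives. Of the 840 values this gave, 658 stayed called and 182 did not. Calls over all comparisons of a kind moved more. DESeq2 and limma voom also called a larger share of all genes than edgeR in every comparison. Against the own 0 h, 4 of 80 were called, 7 with DESeq2 and 17 with limma voom, and 3 to 11 with 1 library left out. The share of all genes called per comparison ran from 1.5% to 15.4% with edgeR. It ran from 2.65% to 19.5% with DESeq2 and from 7.54% to 25.5% with limma voom. For tagged minus parental responses, 2 of 60 were called, 1 with RLE scaling, 0 with library totals alone or without the low-count filter, 4 with limma voom, and 0 to 2 with 1 library left out. Here the share of all genes ran from 0.00465% to 7.4% with edgeR and from 0.00931% to 14.2% with limma voom. For tagged lines against parental cells at 0 h, 3 of 30 were called, 1 with RLE scaling, without the low-count filter or with the GC and length trend removed, 0 with library totals or with the compared groups fitted alone, and 1 to 4 with 1 library left out. Here the share of all genes ran from 4.05% to 15.8% with edgeR and from 4.28% to 17.5% with library totals. From 16 h to 96 h, 6 of 40 were called, 1 with RLE scaling, 0 with library totals, 2 without the low-count filter or with DESeq2, 12 with limma voom, 3 with the GC and length trend removed, 13 without libraries under 5000000 counts, and 1 to 8 with 1 library left out. The share of all genes by line ran from 0.265% to 20.4% with edgeR and from 2.64% to 31.7% with limma voom. Without libraries under 5000000 counts it ran from 0.763% to 30.1%. For differences of responses between tagged lines, 0 of 30 were called, 5 with limma voom, 1 with the GC and length trend removed (also with the replicate block), and 0 to 2 with 1 library left out. The 1 called with that trend removed was TMEM43 in LAC minus LB1. For the added comparison of tagged with parental change from 16 h to 96 h, 0 of 30 were called, 1 with limma voom or the compared groups alone, 3 without libraries under 5000000 counts, and 0 with any 1 library left out. The cause of these differences was not tested. The replicate block alone gave 4, 2, 4, 6, 0 and 0 calls in this order, and the numbers are shared between groups without pairing the wells. Depth limits the shallowest library, where the lowest count of the 10 genes was 10.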
